A study of Drosophila melanogaster with 6 samples.

Results

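The Antennapedia complex is a cluster of Hox and related genes on the right arm of chromosome 3 (3R) of Drosophila melanogaster. Here it is the stretch of 3R from 2.48 to 2.83 Mb on FlyBase release 5, with the gene lab at the low end and Antp at the high end. A peak was counted as a member when its midpoint lay within these bounds. This gave 26 peaks of GAGA factor (GAF), of 1644 on 3R and 11713 in the whole list.

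Binding of GAF was mapped with ChIP-seq, in which chromatin bound by a protein is precipitated with an antibody and its DNA sequenced. Per the labels the embryos were 8 to 16 h old and were fixed for 15 min in 1.8% formaldehyde. There were 3 libraries of GAF ChIP DNA, made with the rabbit polyclonal antibody KW3-Trl-D2, and 3 of input DNA, the same kind of chromatin without the antibody step. All 6 came from the strain Y cn bw sp. The genotype of every library lists y[1] and oc[R3.2], then bw[1], cn[1], sp[1], CG33964[R4.2], Gr22d[1] and Gr22b[1], then Rh6[1], GstD5[1], MstProx[1], LysC[1] and lab[R4.2]. One of the genes of the complex, lab, is thus listed with a marked allele in ChIP and input libraries alike. Whole embryos hold many cell types, so a peak says only that GAF was enriched somewhere in the embryo. A single peak list was deposited for all 6 libraries, giving where each peak lies and how it scored. No value had a replicate error, no difference could be tested, and the depth is unknown.

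Hox genes encode homeodomain transcription factors that give body segments their identity along the head to tail axis, and their order on the chromosome follows that axis. Their expression is held on or off through development by the Trithorax and Polycomb groups of chromatin proteins. GAF, the product of Trl, binds GA-rich DNA, keeps chromatin open at promoters and Polycomb response elements, and is counted among the Trithorax group.

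In a release 6 gene table, used for names and order only, 43 genes run from lab to Antp, 19 of them protein-coding. The 6 genes for which the complex is described come in the order lab, pb, Dfd, Scr, ftz and Antp. Of these, lab acts in the embryonic head, pb in the mouthparts, Dfd in the mandibular and maxillary segments, Scr in the labial and first thoracic segments, and Antp in the thorax. The pair-rule gene ftz, a Hox relative that works in segmentation, lies between Scr and Antp. Between lab and pb the table lists 9 genes, of which 7 are Ccp84A cuticle protein genes. The 10 genes between pb and Dfd include zen and bcd, which pattern the early embryo. Also among them are zen2, and Ama, which encodes a secreted immunoglobulin-domain protein. The 9 between Dfd and Scr include the microRNA gene mir-10. The table lists 6 genes between Scr and ftz, and 3 between ftz and Antp. Gene positions on release 5 were not used here, so no peak is assigned to a gene below, and positions are given as distances from the lab end.

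The complex held a few strong GAF peaks among many weak ones. The authors' score ranged from 8.19 to 987.26 over the 26 members, with a median of 32.2 (95% order-statistic interval 16.3 to 149). The other 1618 peaks of 3R had a median of 72.4 (62.2 to 85.0), inside the interval of the members. With peaks under 500 bp apart joined, each joined peak keeping its highest score, the median of the members was 90.8. The joined median of the arm was not computed, so this value cannot be set beside the 72.4. Of the members, 7 reached the upper quartile of the list, 292.7, as did 31.6% of the peaks of 3R. The same 7 scored 300 or more. That is 26.9% of members (95% Wilson interval 13.7 to 46.1), where 31.1% of the peaks of 3R and 24.4% of the whole list scored 300 or more. The whole list also covers sequences off the chromosome arms, which hold 7429 of its 11713 peaks. By the upper quartile of 3R, or by that of all arms, 6 of the 26 members qualified, 23.1% (11.0 to 42.1). At the other end, 15 members, 57.7% (38.9 to 74.5), scored below the list median of 64.7, against 48.5% of the peaks of 3R. Another 4 members lay between that median and 300. All of these intervals cover counting error only and treat neighbouring peaks as independent, which they may not be. For scores of 300 or more and for scores below the list median, the share of the arm lay inside the interval of the members. With 1 list, whether the shares differ could not be tested.

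**Figure D1:**
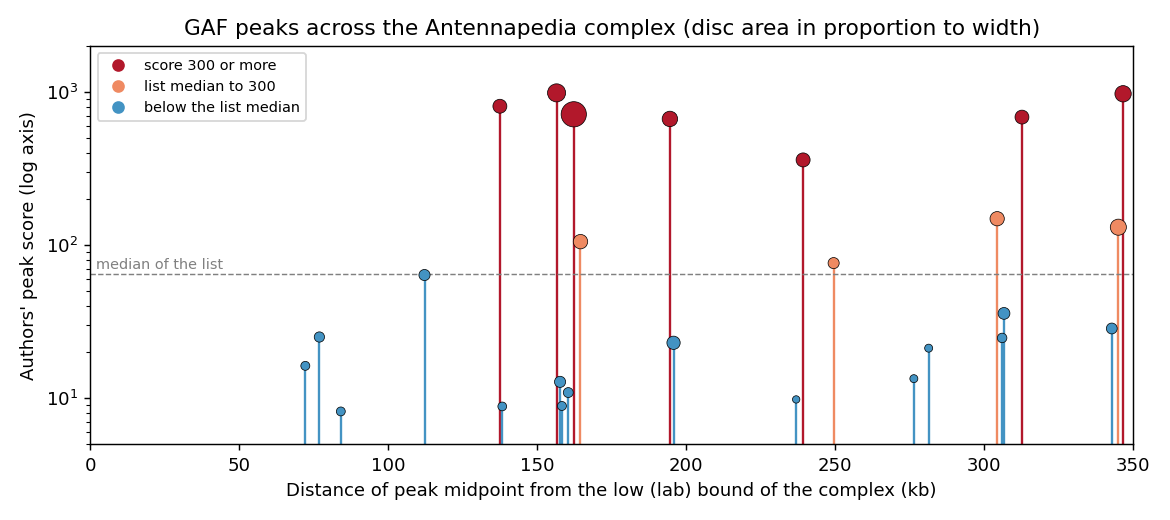
Authors' score (log axis) of each of the 26 GAF peaks against the distance of its midpoint from the low (lab) bound in kb, with disc area in proportion to width, colour by score class and a dashed line at the list median of 64.7. No peak lies in the first 72.0 kb, and the 7 peaks of 300 or more stand between 137 and 347 kb.

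The lab end was empty of peaks and the Antp end was not. The first member began 72.0 kb above the low bound. The nearest listed peak below it, outside the bounds, ran from 2419036 to 2419412 with a score of 45.18. The peak-free gap between them was 132601 bp, the ninth longest of the 1643 gaps between neighbouring peaks on 3R. On the high side a member ended at 2827097, and the next listed peak followed after 3020 bp, from 2830118 to 2830408 with a score of 13.96, only just outside the bound. A much stronger peak, from 2862665 to 2863784 with a score of 1228.84, lay 32664 bp beyond the bound. No member scored as high as that one.

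The first 137 kb from the lab end held weak peaks only. The 296 bp peak from 2552014 to 2552309 scored 16.26. The 388 bp peak from 2556688 to 2557075 scored 25.09. The lowest score of the complex, 8.19, belonged to the 293 bp peak from 2563928 to 2564220, and only 1.37% of the list scored lower. After a gap of 27709 bp the 458 bp peak from 2591930 to 2592387 scored 63.74, just under the list median. None of these 4 was within 20 kb of a peak of 300 or more.

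The first strong member, 137 kb from the low bound, was compact. It ran from 2617102 to 2617815, was 714 bp wide and scored 807.46, the third highest of the complex and rank 203 of the 1644 peaks of 3R. A weak peak of 282 bp and score 8.83 lay 301 bp above it, from 2618117 to 2618398.

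The longest run of closely spaced peaks in the complex had 6 members, from 2635886 to 2644890, starting 155.9 kb from the low bound. It spanned 9005 bp, of which peaks covered 60.3%. It opened with the highest score of the complex, 987.26, on a 1202 bp peak from 2635886 to 2637087, rank 139 on 3R and rank 612 in the list. Then came 3 weak peaks, from 2637426 to 2637882 with a score of 12.78, from 2638134 to 2638430 with 8.89, and from 2640227 to 2640590 with 10.88. After them stood the widest member, 2347 bp from 2641082 to 2643428, with a score of 715.18. It was wider than 96.5% of the peaks in the list. The run closed with a 766 bp peak from 2644125 to 2644890 that scored 105.33. With neighbours under 5 kb apart taken as a group, the 26 members formed 12 groups, and this was the largest by number of peaks. Only members were grouped, so the last group was cut at the high bound, where the next peak followed after 3020 bp. Lone peaks made up 4 of the 12 groups, 33.3% (95% Wilson interval 13.8 to 60.9), against 63.9% of the groups of 3R outside the complex. Groups of 6 or more peaks made up 5.68% of the 828 groups on 3R outside the complex, and the largest there had 21 peaks.

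The strong members of the upper part were farther apart. The 880 bp peak from 2674079 to 2674958 scored 667.03, with a 648 bp peak of score 23.00 after 457 bp, from 2675416 to 2676063. There followed the longest gap inside the complex, 40730 bp. Beyond it lay the narrowest member, 201 bp from 2716794 to 2716994 with a score of 9.81, and then the 723 bp peak from 2718860 to 2719582 with a score of 360.06. The latter was the weakest of the 7 members past 300, and the strongest member below 300 scored 148.68. A 455 bp peak from 2729241 to 2729695 scored 76.26. Next, 2 narrow weak peaks stood far from any strong member, 235 bp from 2756271 to 2756505 with a score of 13.41 and 236 bp from 2761242 to 2761477 with 21.21.

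The Antp end held peaks of all strengths. A group of 3 from 2783974 to 2786896 had scores of 148.68, 24.74 and 35.79 in order of position. The peak from 2792317 to 2793025 was 709 bp wide, scored 685.77 and had no neighbour under 5 kb away. After a gap of 29569 bp, a group of 3 closed the complex. Its first peak, 434 bp from 2822595 to 2823028, scored 28.52, and its second, 953 bp from 2824539 to 2825491, scored 130.88. The last member, 983 bp from 2826115 to 2827097, scored 973.75, second only to the 987.26 at 156 kb, and was rank 143 on 3R. The 2 strongest members thus stood 190.1 kb apart.

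By 50 kb segments counted from the lab end, the complex held 0, 3, 3, 8, 3, 2 and 7 peaks. The peaks of 300 or more numbered 0, 0, 1, 3, 1, 0 and 2 in the same segments. The segment from 150 to 200 kb was the richest by both counts and had 6961 bp under peaks, against 4677 bp in the last segment and at most 1454 bp in any other. On 3R outside the complex, 16.5% of 550 such segments held no peak, 10.9% held 7 or more and 7.27% held 8 or more, with a median of 2 peaks.

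Gaps inside the complex covered a wide range of lengths. The 25 gaps between neighbouring members spanned 201 to 40730 bp, their median being 4378 bp (95% order-statistic interval 696 to 17487), against 5343 bp (4528 to 6400) over 3R. Gaps under 1000 bp numbered 8, 32.0% (17.2 to 51.6), against 28.3% on 3R. Gaps of 20 kb or more numbered 7, 28.0% (14.3 to 47.6), against 26.0% on 3R. For the median and for both cutoffs, the value of the arm lay inside the interval of the members. At the long end the members stopped short of the arm, as only 87.5% of the gaps on 3R were shorter than 40730 bp. The peak-free gap across the low bound is not among the 25. The 6 distances between midpoints of successive strong members spanned 5768.5 to 73450 bp, their median being 33099 bp, beside 33619 bp over the 511 such distances on 3R.

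**Figure D2:**
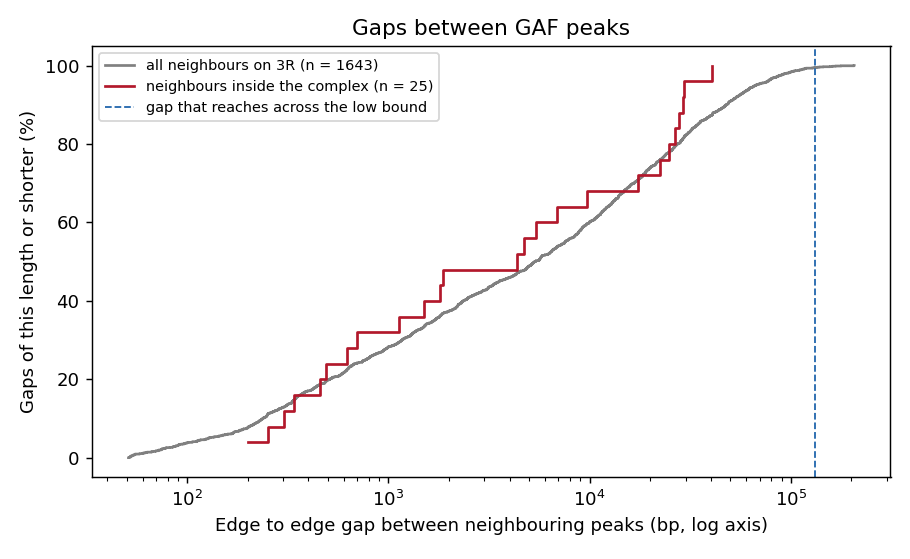
Share (%) of edge to edge gaps at or below a given length (bp, log axis) for the 25 gaps between members (red) and all 1643 on 3R (grey), with a dashed line at the gap of 132601 bp across the low bound. The red curve starts just below the grey one, lies above it over much of the range and ends at 40730 bp. At that length 87.5% of the gaps on 3R are shorter, and the dashed line lies near the end of the grey curve.

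Most strong members had a weak peak beside them. Of the 7 members of 300 or more, 5 had a peak below the list median within 2 kb, 71.4% (95% Wilson interval 35.9 to 91.8), where 35.0% of the 512 strong peaks of 3R did. The exceptions scored 685.77 and 973.75. Seen from the weak peaks, 6 of the 15 members below the list median, 40.0% (19.8 to 64.3), lay within 2 kb of a peak of 300 or more, against 30.0% on 3R. Whether such pairs are separate binding sites or parts of 1 enriched region was not tested. With 7 strong members the interval nearly reached the share of the arm.

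Strong members were mostly narrow for their score. Only 2 of the 26 members were 1000 bp or wider, 7.69% (2.14 to 24.1), against 25.1% of the peaks of 3R and 16.3% of the list. Among peaks of 300 or more, the median width was 880 bp over the 7 members (95% order-statistic interval 709 to 2347) and 1336 bp (1249 to 1403) over the other 505 on 3R. Of the 7 strong members 28.6% (8.22 to 64.1) were 1000 bp or wider, and of the other 505 strong peaks 69.5% (65.4 to 73.4). Each member was also set beside the 100 other peaks of 3R closest to it in log score. In that comparison 6 of the 7 strong members were narrower than the median of their 100. The member of score 807.46 was 714 bp wide beside a median of 1431.5 bp, and 1 of its 100 was narrower. The member of score 685.77 was 709 bp wide beside 1270.5 bp, with 4 narrower, and that of score 973.75 was 983 bp wide beside 1553 bp, with 9 narrower. The difference was milder for the members of score 987.26, 667.03 and 360.06, with 17, 20 and 33 of their 100 narrower. The 2347 bp member went the other way, with 90 of its 100 narrower. Of the 19 members below 300, 5 were narrower than the median of their 100. The 709 to 2347 bp interval of the 7 strong members contains the 1336 bp of the arm.

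**Figure D3:**
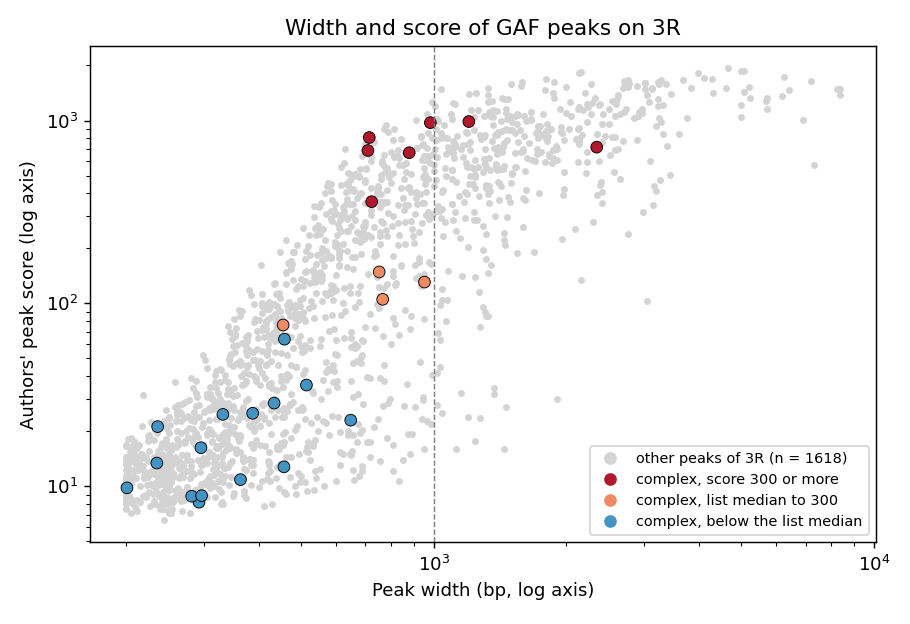
Score against width in bp (both axes log) for the 26 members (coloured by score class) and the other 1618 peaks of 3R (grey), with a dashed line at 1000 bp. Of the 7 red points, 5 lie left of the line, and the point of 2347 bp lies well to its right.

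Wider members had higher scores, much as on the whole arm. Spearman's rho was 0.876 across the 26 members and 0.863 across the 1644 peaks of 3R. Peaks are not independent replicates, and width and score come from the same peak calls. The 7 strong members made up 47.5% of the 15919 bp under member peaks, and the 15 below the list median 34.1%.

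Against the rest of its arm, the complex was fairly rich in peaks by number and ordinary by covered length. By median and highest score it stood towards the low side. The arm was laid out in 79 stretches of 350 kb, of which the complex was 1. Its 26 peaks compared with a median of 20 over the other 78, which ranged from 3 to 44. Of these 78, 61 had fewer peaks, 78.2% (95% Wilson interval 67.8 to 85.9), 1 had as many and 16 had more. Peaks covered 4.55% of the complex, and 42 of the 78 were covered less, with a median of 4.52%. The 7 peaks of 300 or more compared with a median of 6, and 44 stretches had fewer. As a share of the peaks in the stretch they made up 26.9%, beside a median of 30.6%, with 26 stretches lower and 52 higher. The median score of the complex, 32.2, was on the low side, with 16 of 78 stretches lower and a median over stretches of 79.0. The highest score, 987.26, was exceeded in 57 of the 78. Even the 72.0 kb without peaks at the lab end was shorter than the longest peak-free run in 44 of them, where runs were likewise cut off at the bounds of each stretch.

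**Figure D4:**
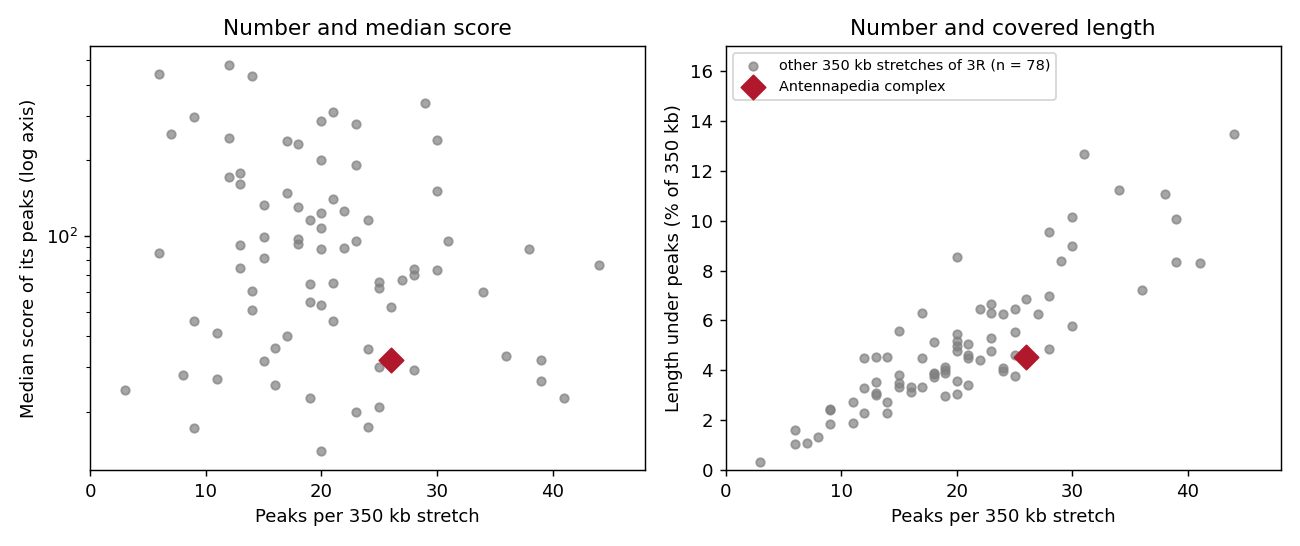
Each point is a 350 kb stretch of 3R, plotted by its number of peaks against the median score of those peaks (left, log axis) or the percentage of its length under peaks (right), with the Antennapedia complex as a red diamond. The diamond, at 26 peaks, lies to the right of most of the 78 grey points, low among them on the left and near mid-height on the right, at 4.55%.

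The flanking stretches of equal length had fewer peaks, with higher median scores. The 350 kb next to the low bound held 18 peaks with a median score of 233, and 8 of them scored 300 or more. The 350 kb above the high bound held 15 peaks with a median of 99.1, and 7 of them scored 300 or more. Its highest score, 1490.65, was above the 987.26 of the complex, while that on the low side, 945.31, was not.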

How the data were processed

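The submitters' processing notes name MACS2, BWA and CASAVA (versions 1.7.0.3 and 1.7.0.2) and the genome build BDGP5. The build is FlyBase release 5 per the file headers. Each peak carries a score deposited by the authors. Its scale, the calling threshold and how libraries were pooled are not stated in those notes or headers. Scores therefore served to describe and rank peaks within the list, and, by difference of log score, to find peaks of like score. Starts were raised by 1, because the first listed start is 0. Stretches of 350 kb were laid end to end from the low bound of the complex, and complete ones between the first and last peak of 3R were used. Medians have exact binomial order-statistic intervals and shares Wilson intervals, both at 95%. The rule for named items covered every member peak by its coordinates, with the highest, widest and lowest peaks and the largest gaps in full. The members, lists and thresholds were chosen with earlier results of these data known. The comparisons of widths at like score, of weak neighbours, of groups and of 50 kb segments were added once the data had been examined. Member counts, peak counts and covered length per stretch, gaps and joining were tested on simulated lists with planted peaks. Ranks and the counts of groups, weak neighbours, 50 kb segments and widths at like score were not tested in this way. Promoter sequences were not used here. The work was done in Python 3.11.15 with scipy 1.17.1, pandas 2.3.3 and numpy 2.4.6, and plots were drawn with matplotlib 3.10.9.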

Additional observations from a re-analysis of the deposited data

How the results depend on the processing

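The 7 results were recomputed under alternatives, which gave 27 values. In 21 cases the value stayed inside the interval of the reported one or, for counts and covered length, within 1.5 times of it. Some of these were no real change of setting. Taking any peak that overlapped the bounds chose the same members and gave identical values, as did the score of 300 or more for the upper quartile. The other 6 of the 27 values all came from keeping only peaks at or above the list median, which removes 15 of the 26 members by construction. That left 11 members covering 3.00% of the complex, with a median score of 667, a median width of 766 bp and 63.6% in the upper quartile of the list. The share of other stretches of 3R with fewer peaks than the complex was then 52.6%, in place of 78.2%. The median gap was 13864 bp under that setting, in place of 4378 bp, though still inside its interval. With peaks under 500 bp apart joined, the median score was 90.8 in place of 32.2, the median width 716 bp in place of 457.5 bp and the median gap 6852 bp, moves of over 1.5 times that also stayed inside the wide intervals. Joining left 20 peaks and a share of stretches of 69.2%, and over the alternative layouts of stretches the share ranged over 70.1 to 74.9%. No paired analysis was possible because values per library were not in the list, and for the same reason leaving out a library could not be tried. The alternatives for GAGAG in promoters were not run, as no promoter sequence was used here. With the depth unknown, no lower limit on a detectable peak can be given.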
